A study of Mus musculus with 24 samples.

Results

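The response described here is that of alveolar macrophages with high surface Siglec F from old mice to asbestos. Its members are the 8 libraries whose labels name old Siglec F-high cells, of 24 libraries in the series: 4 from naive mice and 4 from mice sampled 28 days after asbestos. All mice were C57BL/6J with no transgene named in the labels, the old mice were more than 18 months of age, and the cells were sorted from lung by flow cytometry. The other 16 libraries, 4 in each of 4 groups, were naive young Siglec F-high cells, young Siglec F-high and Siglec F-low cells after asbestos, and old Siglec F-low cells after asbestos, where young mice were 8 to 12 weeks of age. Libraries were made from poly(A)-selected RNA. All genes that passed a filter on low counts were compared, 13629 of 43430 gene IDs in the table.

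Alveolar macrophages live on the surface of the air spaces, where they clear surfactant lipids, dust and dying cells, and Siglec F is a sialic acid-binding lectin that resident alveolar macrophages carry at high levels. Inhaled asbestos fibres are taken up by these cells and cannot be digested, and asbestos in mice is a model of lung fibrosis. Monocytes that enter the injured lung become macrophages that first carry little Siglec F and are known for genes of matrix remodelling and growth factors, so sorting on Siglec F was used in the study to separate resident from monocyte-derived cells. The sort does not give the origin of a cell, and the groups are therefore called by Siglec F.

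Of the 4 asbestos libraries, replicate 3 stood apart. It held 3894699 counts on 15037 genes, with 54.0% of its counts on genes of ribosomal RNA or its repeats, and its log2 CPM correlated with the rest of its group at 0.928. The other 7 libraries held 13423080 to 16365732 counts on 17628 to 18495 genes, with 0.294 to 0.614% on those genes and correlations of 0.985 to 0.995 (Pearson, across genes, which are not independent replicates). Replicate 3 was therefore left out of the tests, which set 3 asbestos libraries against 4 naive ones inside a fit of 22 libraries of all 6 groups. Young asbestos Siglec F-high replicate 3 was left out too, since it had counts on only 12528 genes and correlated with its group at 0.886. Values per gene are CPM, that is counts scaled to the size of the library, on a common scale. Replicate 3 is given beside the tests, and at its low depth a few CPM stand for only a handful of reads. A gene is said to have risen or fallen where the quasi-likelihood test of edgeR gave a Benjamini-Hochberg adjusted p under 0.05 over all genes tested, and folds are log2 fold changes, asbestos minus naive, ± SE. Nothing in the labels says whether replicates came from separate animals, so the p-values measure the spread between these libraries, which may be technical.

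The sorted cells carried the markers of their label. Siglecf itself was at 492, 506, 512 and 489 CPM in the naive replicates 1 to 4 and at 454, 472 and 471 CPM in asbestos replicates 1, 2 and 4. The asbestos libraries lay below all naive ones, but the difference of -0.10 ± 0.10 did not pass the test (edgeR adjusted p = 0.684). Pparg, the nuclear receptor that sets the alveolar macrophage programme, differed by -0.17 ± 0.10 (edgeR adjusted p = 0.399), and Marco, a scavenger receptor for particles, by 0.51 ± 0.44 (0.605). Car4, a carbonic anhydrase typical of these cells, was at 391, 358, 394 and 773 CPM in the naive and 721, 872 and 796 CPM in the asbestos replicates. Its difference of 0.74 ± 0.23 missed the threshold (edgeR adjusted p = 0.0782), and naive replicate 4, which lay with the asbestos libraries, decided this: without it the fold was 1.07 at an adjusted p of 0.00297. Monocyte receptors stayed low, with Cx3cr1 at 3.50, 4.38, 4.03 and 3.20 CPM in the naive and 2.41, 2.17 and 2.40 CPM in the asbestos replicates (-0.70 ± 0.28, edgeR adjusted p = 0.178).

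More genes rose than fell after asbestos in old Siglec F-high cells. Of 13629 genes, 430 rose (3.16%) and 132 fell (0.969%), together 562 (4.12%). An unadjusted p under 0.05 was given by edgeR for 2415 genes, where about 681 would be reached by chance. The median fold was 0.68 among the genes that rose and -0.53 among those that fell, and 154 rose and 32 fell by at least 2-fold. The CPM of the 3 asbestos and 4 naive libraries did not overlap for 411 of the 430 genes that rose and for 127 of the 132 that fell. Over all genes tested the libraries failed to overlap upward for 9.49% and downward for 6.97%. The genes that rose summed to 65423 CPM in the naive and 109616 CPM in the asbestos means, and Chil3 alone went from a mean of 12957 to 32542 CPM. Among the genes that rose, 59 were under 1 CPM in naive cells.

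The counts depended on which libraries entered the fit. With all 24 libraries 105 of 13467 genes were called (0.780%), 96 of them higher (0.713%) and 9 lower (0.0668%), and 93 of the 105 were called in the same direction with 22 libraries. With old asbestos replicate 3 alone left out, in 23 libraries, 93 genes were called, so the count reached 562 only when young asbestos Siglec F-high replicate 3 was left out of the shared estimate of the spread too. Fitted without the other groups, the 2 groups gave 51 calls with replicate 3 and 493 without it. In replicate 3, 215 of the 430 genes that rose (50.0%) lay above all naive libraries, against 37.6% of all genes tested, and 106 lay below all of them. Of the 132 genes that fell, 93 (70.5%) lay below all naive libraries in replicate 3, against 44.0% of all genes tested. Among the 7 libraries used, the count of calls was lowest without asbestos replicate 4 (223) or replicate 1 (243) and was 344 without naive replicate 2 and 361 without naive replicate 3. The 3 other removals left 430 to 532 calls.

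**Figure D1:**
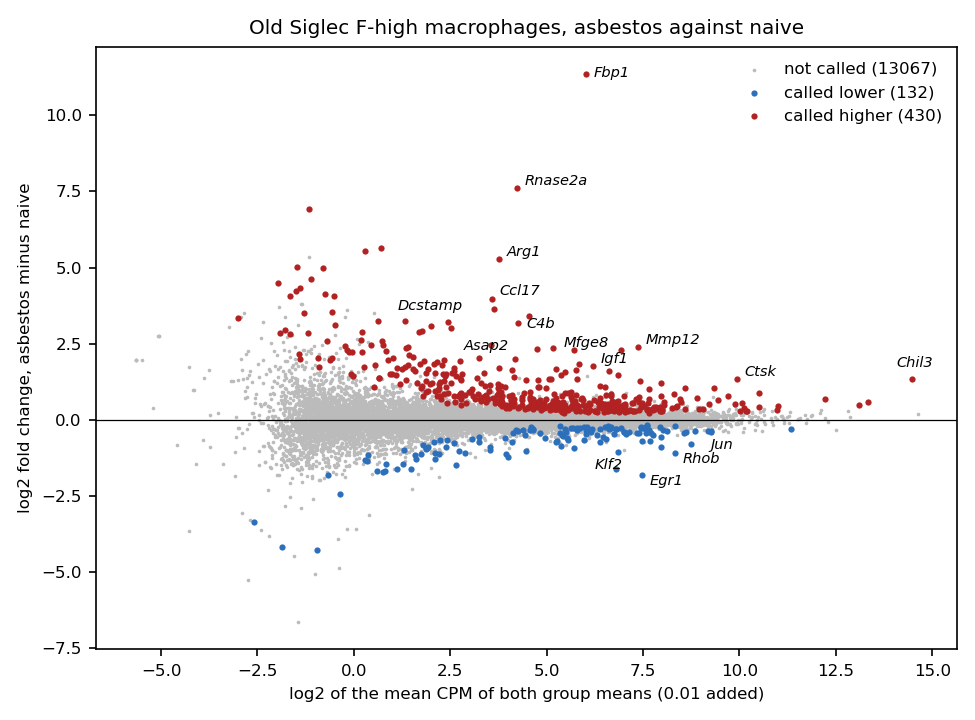
Log2 fold change, asbestos minus naive, against the log2 of the mean CPM for the 13629 genes tested in old Siglec F-high cells, red for genes that rose and blue for genes that fell. Of the genes that rose, 61 did so by at least 4-fold, and Fbp1, with 3 counts in all naive libraries, is drawn at its fitted value, which is not a bound.

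**Figure D2:**
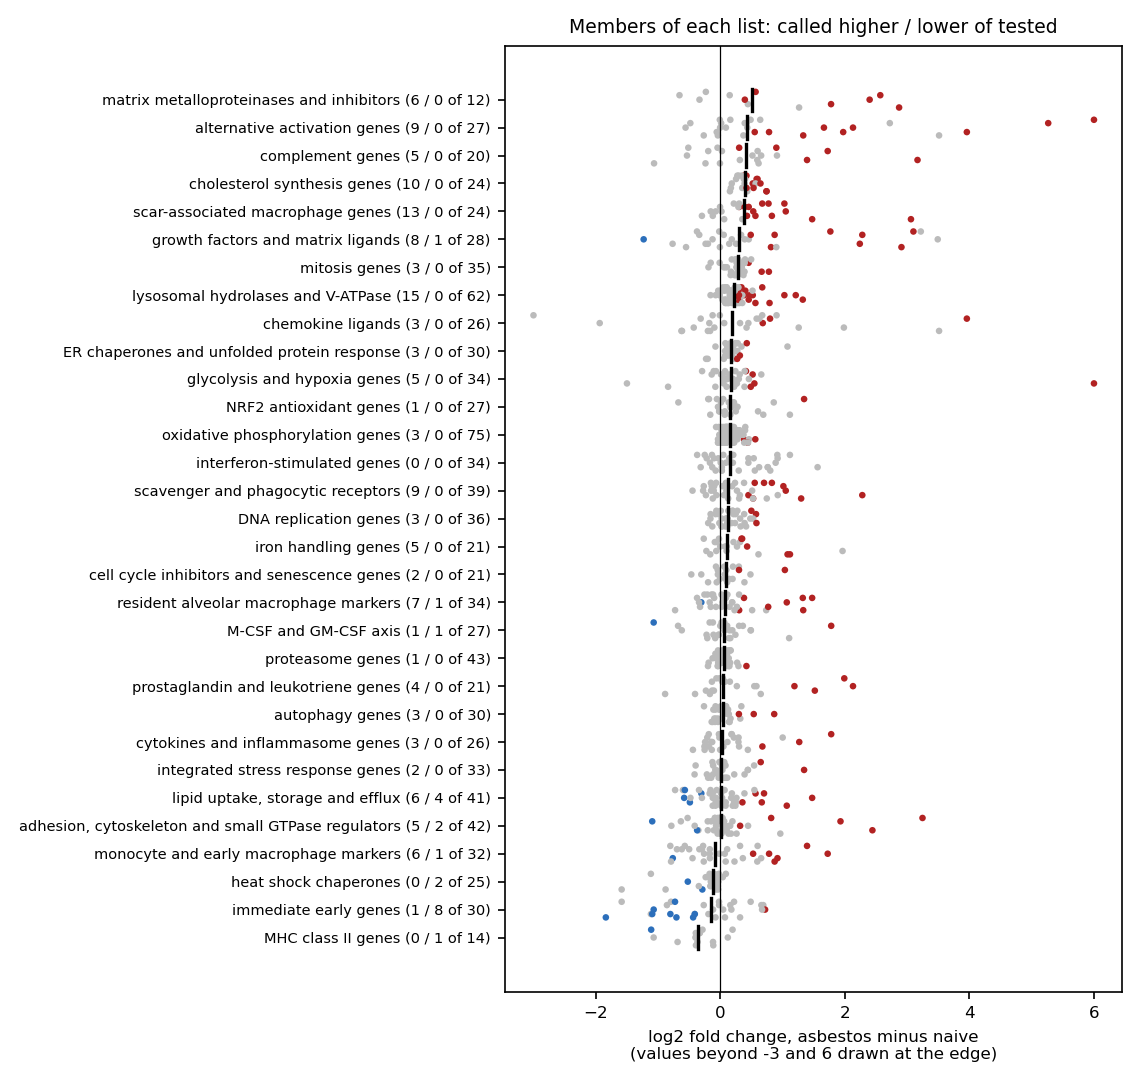
Log2 fold change of each tested member (points) of 31 gene lists, with the median as a black bar and, in brackets, the number called higher and lower of those tested. Red points rose and blue points fell; the highest medians are those of the metalloproteinases (0.50) and of the alternative activation genes (0.43), and the lowest is that of the MHC class II genes (-0.35).

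The genes with the largest rises included enzymes and lectins of alternatively activated macrophages, the state that interleukin 4 and interleukin 13 induce. Of 27 tested genes of this list 9 rose (33.3%) and none fell, where 3.16% of all genes tested rose and 0.969% fell. The median fold was 0.43, against -0.000186 over all genes tested. The gene lists were chosen with earlier results of these data known, so such shares describe them and are not a test. Arg1, which turns arginine into ornithine and urea, was at 0.466, 0.954, 0.774 and 0.533 CPM in naive replicates 1 to 4 and at 24.3, 29.6 and 25.8 CPM in asbestos replicates 1, 2 and 4. Every asbestos library was far above every naive one, replicate 3 included at 10.6 CPM, and the fold was 5.27 ± 0.33 (edgeR adjusted p = 1.65e-09). Fbp1, the gluconeogenic fructose-bisphosphatase, had 3 counts in the 4 naive libraries together and 6322 in the 3 asbestos libraries, or 153, 152 and 87.0 CPM. This is a ratio of 3111 with a 95% counting interval of 1064 to 15088, which covers counting error only, and replicate 3 was lower at 9.80 CPM (edgeR adjusted p = 9.17e-09).

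Chil3, the chitinase-like lectin Ym1, was at 12764, 14077, 11573 and 13416 CPM in the naive and 33478, 34197 and 29949 CPM in the asbestos replicates. The fold was 1.33 ± 0.12 (edgeR adjusted p = 4.22e-07), but replicate 3, at 12001 CPM, lay among the naive libraries. Its close relative Chil4 rose by 1.66 ± 0.19 (edgeR adjusted p = 9.04e-06), and reads shared between these near-identical genes cannot be told apart here. Ccl17, a chemokine that draws T cells through CCR4, was at 0.991, 3.20, 0.663 and 0.888 CPM in the naive and 24.5, 28.6 and 13.97 CPM in the asbestos replicates. Naive replicate 2 was the highest naive library, the fold was 3.96 ± 0.49 (edgeR adjusted p = 2.96e-05) and 4.73 without that replicate, and replicate 3 was at 0.817 CPM, inside the naive range.

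The other members of the list that rose were Retnla, which encodes the secreted protein Fizz1 (1.97 ± 0.51), Alox15, a lipoxygenase (2.13 ± 0.53), Irf4, a transcription factor downstream of interleukin 4 (0.78 ± 0.19), and Clec7a, the receptor for fungal glucans (0.55 ± 0.14). These 4 calls were each lost without asbestos replicate 4 and without naive replicate 3, and some without other libraries, at edgeR adjusted p of 0.0523 to 0.138. Outside the list, 2 genes of the eosinophil-associated ribonuclease family rose. Rnase2a was at 0, 0.561, 0.166 and 0 CPM in the naive and 41.3, 49.4 and 21.3 CPM in the asbestos replicates but had no count in replicate 3 (7.61 ± 0.64, and 9.18 without naive replicate 2; edgeR adjusted p = 9.00e-08). Ear6 was at 2.80, 1.96, 2.71 and 6.99 CPM in the naive and 16.5, 12.4 and 31.2 CPM in the asbestos replicates (2.47 ± 0.45, edgeR adjusted p = 0.00198). Genes of this family resemble each other closely, so the share of reads that belongs to each is uncertain.

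**Figure D3:**
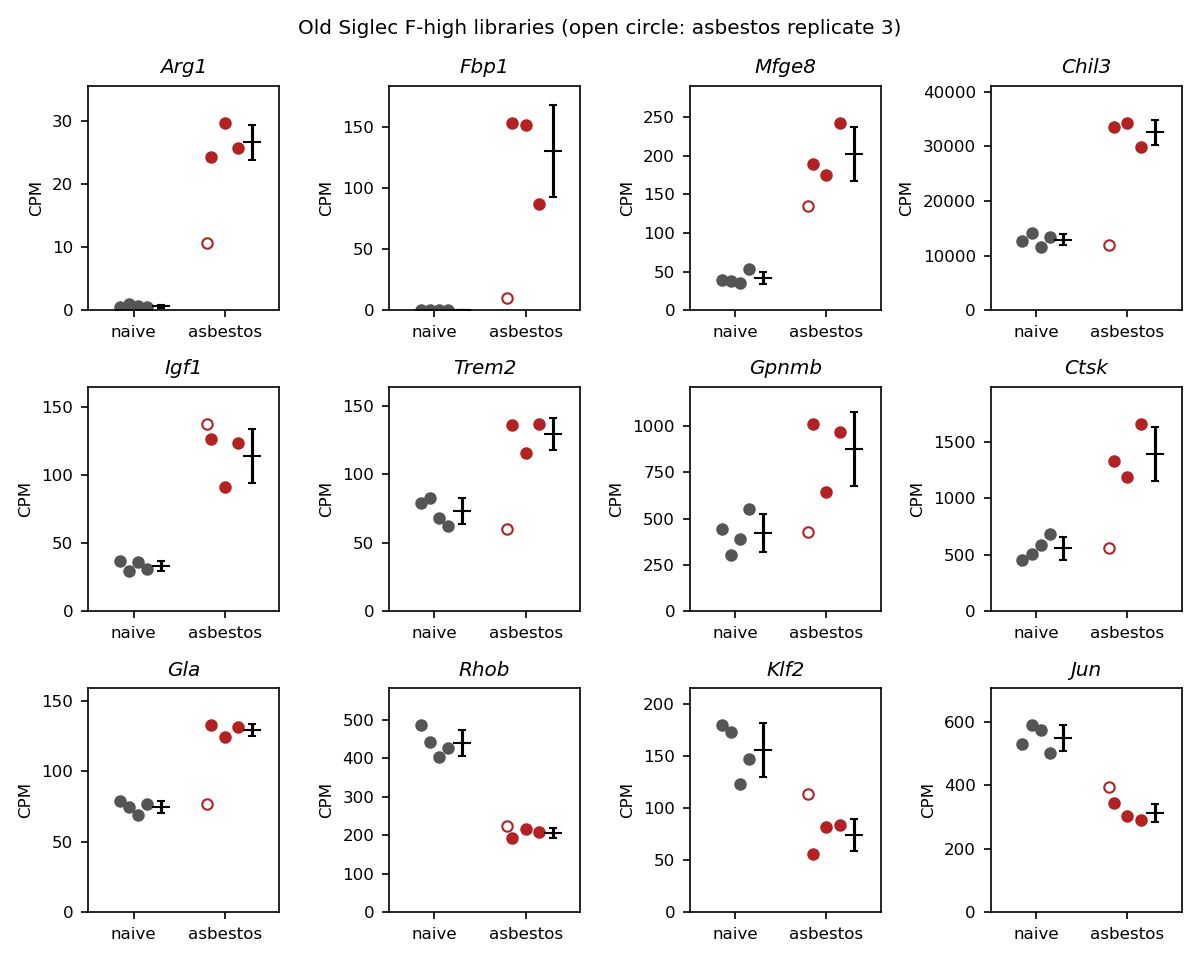
CPM of 12 genes in the 4 naive libraries (grey) and the 3 asbestos libraries tested (red), with the mean and SD of each group as a bar and asbestos replicate 3, which was not tested, as an open circle; each vertical axis starts at 0. In all 12 genes the 3 asbestos libraries lie wholly above or below the 4 naive ones, which for Chil3, Gla and Klf2 was a condition of their choice. Replicate 3 lies inside or below the naive range for Chil3, Trem2, Gpnmb, Ctsk and Gla.

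Genes that act on the matrix and on neighbouring cells rose as well. Of 12 tested matrix metalloproteinases and inhibitors 6 rose (50%) and none fell (median 0.50). Of 28 growth factors and matrix ligands 8 rose (28.6%) and 1 fell (3.57%, median 0.29), against 3.16% and 0.969% of all genes tested. Mfge8, the secreted bridge between phosphatidylserine on dying cells and integrins on phagocytes, was at 39.2, 38.2, 36.1 and 53.2 CPM in the naive and 189, 175 and 242 CPM in the asbestos replicates. All asbestos libraries, replicate 3 included at 136 CPM, lay above the naive ones (2.28 ± 0.19, edgeR adjusted p = 8.55e-08). Igf1, a growth factor for fibroblasts and epithelium, was at 37.0, 29.6, 36.1 and 31.3 CPM in the naive and 127, 91.0 and 124 CPM in the asbestos replicates. Here too replicate 3 was high, at 137 CPM, and the fold was 1.77 ± 0.23 (edgeR adjusted p = 4.68e-05).

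Pdgfa, a mitogen of mesenchymal cells, rose from near the limit of detection, at 0.0583, 0.281, 0.166 and 0.0592 CPM in the naive and 2.17, 0.820 and 0.801 CPM in the asbestos replicates (3.10 ± 0.50, edgeR adjusted p = 6.30e-04). Its fold was 2.46 without asbestos replicate 1. Replicate 3 was at 0 CPM, but at its depth levels this low can give no read. Ecm1, a secreted matrix glycoprotein, rose by 0.81 ± 0.12 (edgeR adjusted p = 3.46e-04). Fn1, which encodes fibronectin, was at 488, 1149.7, 912 and 1543 CPM in the naive and 1778, 1846 and 1982 CPM in the asbestos replicates and reached 3672 CPM in replicate 3. Its rise of 0.87 ± 0.22 (edgeR adjusted p = 0.0235) was lost without naive replicate 3 or asbestos replicates 1 or 4 (0.0617 to 0.0916). The rises of Inhba, the activin A subunit (2.91 ± 0.57, and 2.18 without asbestos replicate 4), Vegfb (0.49 ± 0.10) and Hbegf, an EGF receptor ligand (2.24 ± 0.52), were lost without asbestos replicate 4 (0.0516 to 0.139), and that of Hbegf also without naive replicate 3 (0.0523). Ereg, which encodes epiregulin, another EGF receptor ligand, was the member that fell, at 21.9, 26.9, 9.89 and 31.6 CPM in the naive and 10.7, 9.02 and 8.95 CPM in the asbestos replicates (-1.23 ± 0.29, edgeR adjusted p = 0.0173). The ranges of the groups overlapped, and the call was lost without any 1 of 5 libraries, naive replicates 2 and 4 and asbestos replicates 1, 2 and 4 (0.0513 to 0.0828).

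Among the proteases, Mmp12, the macrophage elastase, was at 12.6, 155, 17.3 and 25.5 CPM in naive replicates 1 to 4 and at 303, 258 and 272 CPM in asbestos replicates 1, 2 and 4. Naive replicate 2 was well above the other naive libraries without reaching the asbestos ones. The fold was 2.40 ± 0.52 (edgeR adjusted p = 0.00921), 3.91 without naive replicate 2, and at an adjusted p of 0.0924 with all 24 libraries. Mmp14, a membrane-bound collagenase, rose by 1.78 ± 0.30 (edgeR adjusted p = 8.76e-04), from 0.991, 1.29, 1.11 and 1.30 to 3.80, 3.16 and 5.24 CPM. Timp1, an inhibitor of metalloproteinases, rose by 2.87 ± 0.51 (edgeR adjusted p = 0.00144), but asbestos replicate 1, at 0.542 CPM, was far below replicates 2 and 4, at 3.16 and 2.40 CPM, and only just above the naive libraries (0.350, 0.112, 0.276 and 0.355 CPM). The rises of Mmp13 (2.57 ± 0.73, and 3.68 without naive replicate 1), Mmp19 (0.57 ± 0.15) and the inhibitor Timp2 (0.39 ± 0.11) were lost without any 1 of several libraries (edgeR adjusted p 0.0609 to 0.272).

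Genes of the lipid-associated macrophages that gather in scars and fatty tissue rose in 13 of 24 cases (54.2%, against 3.16% of all genes tested). None fell (median 0.37). Trem2, a lipid receptor that defines these cells, was at 79.4, 82.6, 68.2 and 62.2 CPM in the naive and 136, 116 and 136 CPM in the asbestos replicates, with no overlap (0.83 ± 0.14, edgeR adjusted p = 0.00128). Replicate 3, at 60.4 CPM, lay below all naive libraries, and with all 24 libraries the call was lost (0.190). Gpnmb, a lysosomal glycoprotein, was at 444, 305, 392 and 551 CPM in the naive and 1009, 644 and 969 CPM in the asbestos replicates. Its rise of 1.05 ± 0.23 (edgeR adjusted p = 0.00921) was lost without asbestos replicate 1 (0.0611) or 4 (0.0538) and with all 24 libraries (0.343). Spp1, which encodes the cytokine osteopontin, was at 507, 812, 506 and 619.7 CPM in the naive and 1096, 1016 and 1017 CPM in the asbestos replicates. Naive replicate 2 was again the highest naive library, and the rise of 0.77 ± 0.21 (edgeR adjusted p = 0.0337) was kept without naive replicate 2 and lost without each of the other 6 libraries (0.0577 to 0.124).

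The tetraspanin Cd63 rose from 297, 231, 221 and 268 to 574, 434 and 545 CPM (1.03 ± 0.20, edgeR adjusted p = 0.00351), and Fabp5, a fatty acid carrier, from 60.03, 48.5, 59.2 and 77.3 to 167, 152 and 190.4 CPM (1.47 ± 0.16, 6.98e-06). Syngr1, a vesicle protein, rose by 3.06 ± 0.52 (edgeR adjusted p = 0.00112), to 10.1, 2.93 and 8.30 CPM. Of the 13 calls, 7 held whichever 1 of the 7 libraries was left out (Trem2, Fabp5, Cd63, Ctsb, Ctsd, Ctsl and Syngr1). Only Fabp5 and Syngr1 were called with all 24 libraries. Only these were above all naive libraries in replicate 3, where 37.6% of all genes tested were.

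Among 39 scavenger and phagocytic receptors 9 rose (23.1%, against 3.16% of all genes tested) and none fell (median 0.13). Fcgr2b, the inhibitory receptor for IgG, was at 173, 125, 129 and 107 CPM in the naive and 343, 219 and 246 CPM in the asbestos replicates (1.01 ± 0.14, edgeR adjusted p = 1.28e-04). Cd36, which takes up oxidised lipoproteins and fatty acids, went from 359.9, 352, 366 and 366 to 596, 522 and 639.8 CPM (0.70 ± 0.13, edgeR adjusted p = 0.00257) and stood at 425 CPM in replicate 3. Cd68, a lysosomal glycoprotein of macrophages, rose by 0.53 ± 0.11 (edgeR adjusted p = 0.00559). The rise of Msr1, a scavenger receptor (1.30 ± 0.29, from 6.12, 18.7, 6.57 and 20.1 to 32.1, 24.5 and 38.3 CPM), was lost without asbestos replicate 4 (0.0664). That of Cd33, an inhibitory lectin, was small (0.45 ± 0.12) and was lost without 5 of the libraries, naive replicates 1, 2 and 3 and asbestos replicates 1 and 4 (0.0509 to 0.182).

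Dcstamp and Ocstamp, membrane proteins needed for macrophage fusion, were at 0.466, 0.786, 0.166 and 0.474 CPM and 0.291, 0.617, 0.221 and 0.533 CPM in the naive replicates. In asbestos replicates 1, 2 and 4 they were at 5.24, 3.22 and 5.17 CPM and 2.05, 2.40 and 2.40 CPM. Neither overlapped between groups, and the folds were 3.25 ± 0.46 and 2.44 ± 0.39 (edgeR adjusted p = 2.00e-04 and 6.04e-04). Replicate 3 was above the naive range for both (3.27 and 1.63 CPM), but at its depth these values are a handful of reads. Ctsk, which encodes the collagen-degrading cathepsin K, was at 452, 507, 587 and 680.1 CPM in the naive and 1328, 1191 and 1652 CPM in the asbestos replicates (1.32 ± 0.18, edgeR adjusted p = 1.09e-04). Acp5, the tartrate-resistant acid phosphatase used to stain osteoclasts, went from 162, 137, 141 and 168 to 347, 311 and 397 CPM (1.21 ± 0.13, 4.43e-06), with replicate 3 inside the naive range for both at 559 and 150.3 CPM.

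In the list of adhesion, cytoskeleton and small GTPase regulators, which also holds Dcstamp and Ocstamp, 5 of 42 genes rose (11.9%) and 2 fell (4.76%, median 0.01). Over all genes tested these shares were 3.16% and 0.969%. Asap2, which switches off ARF GTPases at adhesions, was at 2.21, 2.81, 2.87 and 3.26 CPM in the naive and 10.5, 9.84 and 11.5 CPM in the asbestos replicates, and replicate 3 matched them at 11.4 CPM (1.93 ± 0.17, edgeR adjusted p = 2.77e-07). Tspan4, a tetraspanin, rose by 0.82 ± 0.13 (edgeR adjusted p = 5.92e-04), and the rise of Asap1 (0.32 ± 0.09) was lost without any 1 of 6 libraries, all but naive replicate 4 (0.0615 to 0.154). Rhob, a small GTPase of endosomes that is also an immediate early gene, and Itgal, the integrin LFA-1 alpha chain, fell. Itgal was at 653, 646, 728 and 759 CPM in the naive and 519.8, 547 and 544 CPM in the asbestos replicates (-0.37 ± 0.07, edgeR adjusted p = 0.00498).

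The lysosomal genes that rose did so by small steps. Of 62 tested hydrolases, membrane proteins and V-ATPase subunits 57 had a positive fold, and the median was 0.21. Of the 62, 15 rose (24.2%, against 3.16% of all genes tested) and none fell. Gla, which encodes alpha-galactosidase A, was at 79.3, 74.8, 69.4 and 76.7 CPM in the naive and 133, 124 and 132 CPM in the asbestos replicates (0.79 ± 0.09, edgeR adjusted p = 9.04e-06). Ctsd, the aspartic protease cathepsin D, was at 8407, 8526, 7962 and 8752 CPM and then 12237, 11662 and 13326 CPM (0.56 ± 0.11, 0.00274). Naglu, which degrades heparan sulfate, was at 109, 100.4, 107 and 113 CPM and then 158, 143 and 159.9 CPM (0.52 ± 0.09, 8.76e-04). Gla was picked among genes whose groups did not overlap, and in Ctsd and Naglu the 7 libraries did not overlap either. The cysteine proteases Ctsb and Ctsl rose by 0.46 ± 0.09 and 0.67 ± 0.13 (edgeR adjusted p = 0.00314 and 0.00257).

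The smaller rises included Ctsa, the protective protein of the lysosome (0.29 ± 0.07), Glb1, a galactosidase (0.30 ± 0.07), the membrane proteins Lamp1 (0.28 ± 0.07) and Lamp2 (0.34 ± 0.09), the sphingolipid activator Psap (0.47 ± 0.10), and the proton pump subunits Atp6v0a1 (0.40 ± 0.11) and Atp6v0d2 (0.38 ± 0.09). These 7 calls were lost without asbestos replicate 4, 6 of them also without replicate 1 and 6 without naive replicate 2, at edgeR adjusted p of 0.0505 to 0.174 over all removals. The other 8 (Ctsb, Ctsd, Ctsk, Ctsl, Gla, Naglu, Acp5 and Cd63) were kept without any 1 library. In replicate 3 only Atp6v0a1 of the 15 lay above all naive libraries, where 37.6% of all genes tested did. Ctsk, Gla and Acp5 were the 3 called with all 24 libraries.

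Many lysosomal genes are controlled by TFEB and its relatives, which bind an E-box of the letters CACGTG. Since 15 lysosomal genes rose, the 250 bases before the RefSeq start were searched for these letters (the same on both strands) in the 13 of the 15 genes that have such a window. It was present in 7 of the 13 (53.8%; Ctsa, Ctsd, Ctsl, Gla, Glb1, Lamp1 and Naglu) and in 7 of 36 lysosomal genes that were tested and did not rise (19.4%), against 9.82% of 10082 tested genes with a window and 6.02% of 32851 windows in all. The longer form TCACGTGA, which holds the first, was present in Ctsa, Ctsd and Gla (3 of 13, 23.1%) and in 2 of the 36 lysosomal genes that did not rise (5.56%; Atp6v1a and Mcoln1), against 1.77% of tested genes with a window and 0.785% of all windows. The windows of 4 of these genes are given 5′ to 3′ on the strand of the gene, from RefSeq on GRCm38.p6, with the match in capitals. They are chrX:134601006-134601255 (minus strand) for Gla, chr7:142387828-142388077 (minus) for Ctsd, chr2:164833523-164833772 (plus) for Ctsa and chr11:101069844-101070093 (plus) for Naglu. A second RefSeq start of Ctsa, with the window chr2:164832622-164832871, holds no match. Other motifs were searched in the same windows. TGANTCA, the site of the factor AP-1, was present in 3 of the 13 genes (23.1%, Atp6v0a1, Glb1 and Psap). It was present in 1 of the 36 that did not rise (2.78%) and in 5.48% of tested genes with a window. CCAAT was present in 4 of the 13 (30.8%), against 40.2% of tested genes, and the remaining motifs in none. A match is a description of the letters and not a measure of binding.
Gla: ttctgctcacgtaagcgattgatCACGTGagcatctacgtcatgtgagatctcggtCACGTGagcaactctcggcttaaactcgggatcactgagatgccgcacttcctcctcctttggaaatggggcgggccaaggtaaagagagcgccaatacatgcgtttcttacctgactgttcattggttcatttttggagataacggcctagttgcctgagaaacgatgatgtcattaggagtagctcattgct
Ctsd: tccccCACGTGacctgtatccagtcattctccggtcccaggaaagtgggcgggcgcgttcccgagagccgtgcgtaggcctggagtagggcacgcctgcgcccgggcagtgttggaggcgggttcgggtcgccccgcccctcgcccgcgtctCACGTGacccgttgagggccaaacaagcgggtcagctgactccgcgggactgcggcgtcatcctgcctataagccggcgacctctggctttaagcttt
Ctsa: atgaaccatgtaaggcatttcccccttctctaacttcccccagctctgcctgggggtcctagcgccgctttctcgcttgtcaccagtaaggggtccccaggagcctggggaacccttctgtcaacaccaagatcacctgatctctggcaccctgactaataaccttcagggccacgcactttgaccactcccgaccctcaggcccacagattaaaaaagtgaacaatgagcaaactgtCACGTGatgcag
Naglu: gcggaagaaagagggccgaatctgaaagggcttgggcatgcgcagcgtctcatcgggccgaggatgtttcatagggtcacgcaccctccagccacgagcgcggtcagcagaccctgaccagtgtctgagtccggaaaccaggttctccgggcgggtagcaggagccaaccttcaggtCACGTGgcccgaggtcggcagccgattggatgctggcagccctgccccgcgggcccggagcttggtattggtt

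Genes of cholesterol synthesis were among those that rose, and 2 cholesterol exporters fell. All 24 tested members of the synthesis list had a positive fold (median 0.40), 10 rose (41.7%, against 3.16% of all genes tested) and none fell. Hsd17b7, which acts on sterol intermediates, was at 17.7, 16.3, 15.4 and 21.5 CPM in the naive and 31.6, 25.5 and 31.7 CPM in the asbestos replicates, with replicate 3 higher still at 41.7 CPM (0.74 ± 0.12, edgeR adjusted p = 7.93e-04). Sc5d, a sterol desaturase, went from 15.9, 12.6, 12.8 and 19.9 to 24.8, 24.6 and 27.1 CPM (0.74 ± 0.14, edgeR adjusted p = 0.00273), with no overlap between the groups. Sqle, the squalene epoxidase, was at 38.5, 29.9, 35.6 and 53.2 CPM and then at 59.5, 58.4 and 65.9 CPM (0.64 ± 0.12, 0.00320). These 3 were the members called with all 24 libraries and the 3 kept without any 1 library.

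The other 7 were Hmgcs1, the first committed synthase of the pathway (0.38 ± 0.10), Fdps (0.60 ± 0.14), Fdft1 (0.52 ± 0.12), Cyp51 (0.58 ± 0.12), Nsdhl (0.42 ± 0.11), Dhcr7 (0.42 ± 0.10) and the sterol carrier Stard4 (0.53 ± 0.13). Each lost its call without at least 1 library, 6 of them without asbestos replicate 4 and 5 each without asbestos replicate 1, naive replicate 2 or naive replicate 3 (edgeR adjusted p 0.0522 to 0.202). In replicate 3, 6 of the 10 lay above all naive libraries, where 37.6% of all genes tested did. The sterol-responsive factors SREBP bind promoters of this pathway together with factors of the CCAAT box. In the 250 bases before the start, CCAAT, searched on both strands, was present in all 6 of the genes that rose and have a window and in 10 of 11 that did not rise, against 40.2% of tested genes and 33.8% of all windows. The E-box letters searched in the lysosomal genes were present in 3 of these 6 genes too (50.0%; Dhcr7, Hsd17b7 and Sc5d) and in 1 of the 11. The sterol element core TCACCCCAC was present in 1 of the 6, Hmgcs1, and in 0.496% of all windows. The Hmgcs1 window, chr13:119690101-119690350 on the plus strand, is given with that match in capitals.
Hmgcs1: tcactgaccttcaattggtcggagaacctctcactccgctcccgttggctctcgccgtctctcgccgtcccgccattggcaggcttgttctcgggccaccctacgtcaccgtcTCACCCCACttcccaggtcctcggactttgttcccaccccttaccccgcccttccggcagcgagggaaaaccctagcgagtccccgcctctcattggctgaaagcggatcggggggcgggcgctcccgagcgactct

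Of 41 genes of lipid uptake, storage and efflux 6 rose (14.6%) and 4 fell (9.76%, median 0.01), against 3.16% and 0.969% of all genes tested. Those that rose were Fabp5 and Cd36, described above, Fabp4, another fatty acid carrier (1.07 ± 0.26), Mgll, the monoacylglycerol lipase (0.57 ± 0.10), Ppargc1b, a coactivator of mitochondrial genes (0.67 ± 0.12), and Acadl, an enzyme of fatty acid oxidation (0.35 ± 0.09). The calls of Fabp4 and Acadl were lost without any 1 of several libraries (edgeR adjusted p 0.0516 to 0.140). Of the 4 that fell, 3 are classic targets of the oxysterol receptors LXR: the cholesterol exporters Abca1 and Abcg1, and Mylip, a ligase that removes the LDL receptor. Abca1 was at 330.1, 252, 319 and 305 CPM in the naive and 219, 189.6 and 195 CPM in the asbestos replicates (-0.58 ± 0.14, edgeR adjusted p = 0.0178), but replicate 3 was above all of them at 488 CPM. Abcg1 was at 2806, 2669, 2952 and 3012 CPM and then 2294, 2305 and 2329 CPM (-0.31 ± 0.08, 0.0214), with replicate 3 at 3449.6 CPM. The 4 calls, with Mylip (-0.49 ± 0.12) and the lipase Lipe (-0.57 ± 0.16), were all lost without asbestos replicate 4 and without some other libraries (0.0512 to 0.192), and none was made with all 24 libraries. Nr1h3, which encodes LXR alpha, was not called.

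Of 26 chemokine ligands 3 rose and of 26 cytokine and inflammasome genes 3 rose (11.5% of each list, against 3.16% of all genes tested), and none of either list fell (medians 0.19 and 0.02). Csf1, the growth factor on which macrophages depend, was at 1.86, 2.58, 1.77 and 2.49 CPM in the naive and 5.24, 7.09 and 10.3 CPM in the asbestos replicates and at 11.4 CPM in replicate 3 (1.78 ± 0.26, edgeR adjusted p = 2.06e-04). Cxcl16, a chemokine that also binds oxidised lipids, rose by 0.80 ± 0.14 (edgeR adjusted p = 0.00188), and the rise of the chemokine Ccl6 (0.68 ± 0.15) was lost without asbestos replicate 4 (0.0750). Il1b, the inflammasome product interleukin 1 beta, was at 159.6, 93.6, 57.7 and 90.1 CPM and then 192, 205 and 326 CPM (1.27 ± 0.36, 0.0473). The calls of Il1b and Lif (0.68 ± 0.19) were lost without any 1 of 6 libraries, all but naive replicate 1 (0.0609 to 0.240).

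Among 21 genes of prostaglandin and leukotriene synthesis 4 rose and none fell. Ptgs1, the constitutive cyclooxygenase, was at 8.51, 6.01, 6.52 and 7.99 CPM in the naive, 27.2, 28.2 and 30.9 CPM in the asbestos replicates and 26.1 CPM in replicate 3 (1.99 ± 0.22, edgeR adjusted p = 5.12e-06). Pla2g7, which inactivates platelet-activating factor, rose by 1.52 ± 0.25 (edgeR adjusted p = 7.99e-04). The rise of Ptges, a prostaglandin E synthase (1.19 ± 0.31), was lost without naive replicates 1, 2 or 3 or asbestos replicate 1 (0.0741 to 0.250), and Alox15, counted above, was the other. Among 20 complement genes 5 rose (25%, against the same 3.16%) and none fell (median 0.41). Those that rose included C4b, Itgam, C3ar1 and Itgax. C4b, the complement component that is cleaved early in the classical pathway, was at 4.49, 3.03, 4.59 and 3.32 CPM in the naive, 40.4, 33.8 and 29.5 CPM in the asbestos replicates and 43.3 CPM in replicate 3 (3.17 ± 0.26, edgeR adjusted p = 9.00e-08).

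The complement receptor gene Itgam, which encodes CD11b and is low in resident alveolar macrophages, was at 10.02, 9.09, 9.28 and 10.7 CPM in the naive and 24.4, 21.4 and 31.2 CPM in the asbestos replicates, with replicate 3 among the latter at 26.1 CPM (1.39 ± 0.19, edgeR adjusted p = 9.64e-05). C3ar1, the receptor for the anaphylatoxin C3a, rose by 1.72 ± 0.26 (edgeR adjusted p = 3.46e-04). Itgam and C3ar1 also belong to the list of monocyte and early macrophage markers. Of these 6 of 32 rose (18.8%) and 1 fell (3.1%, median -0.09), against 3.16% and 0.969% of all genes tested. Cd68 and Fn1, given above, and Ms4a7 (0.78 ± 0.19) rose too. The call of Ms4a7 was lost without naive replicate 3 (edgeR adjusted p = 0.0516) and without asbestos replicate 1 (0.0909) or 4 (0.0901). Apoe, a lipid carrier high in monocyte-derived cells, was not called (-0.30 ± 0.18, 0.424).

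Of 34 resident alveolar macrophage markers 7 rose (20.6%) and 1 fell (2.94%, median 0.08), against 3.16% and 0.969% of all genes tested. These were Chil3, Ctsk, Fabp5, Fabp4 and the V-ATPase subunit Atp6v0d2, given above, Itgax, which encodes CD11c (0.30 ± 0.07), and the zinc transporter Slc39a2 (0.77 ± 0.19), and the member that fell was Abcg1. The calls of Fabp4, Atp6v0d2, Itgax and Slc39a2 were lost without naive replicate 2, asbestos replicate 1 or asbestos replicate 4 (edgeR adjusted p 0.0516 to 0.125). The summed level of the list was 35448 to 38921 CPM in the naive and 56342 to 60225 CPM in the asbestos libraries, and most of that gain was Chil3.

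The remaining genes of smallest p among those that rose have no shared role in these lists. Chchd10, a protein of the mitochondrial intermembrane space, was at 7.11, 5.05, 6.35 and 7.34 CPM in the naive and 21.5, 19.7 and 21.5 CPM in the asbestos replicates (1.70 ± 0.17, edgeR adjusted p = 1.95e-06). Zranb3, a DNA translocase that remodels stalled replication forks, was at 22.8, 21.6, 19.6 and 25.5 CPM and then 71.5, 56.5 and 71.5 CPM (1.58 ± 0.18, 9.04e-06). Wfdc17, a small secreted protein of macrophages, was at 7.93, 13.4, 8.95 and 16.7 CPM and then 55.4, 57.5 and 68.1 CPM (2.37 ± 0.26, 6.79e-06). All 3 were picked among genes whose groups did not overlap, so the lack of overlap is not a result. Replicate 3 of Wfdc17 fell among the naive libraries at 15.5 CPM.

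Of the lists, that of immediate early genes had the most members that fell. These are transcription factors and regulators that cells switch on within minutes of a stimulus. Of 30 tested 8 fell (26.7%) and 1 rose (3.33%), with a median of -0.15, where 0.969% of all genes tested fell and 3.16% rose. Rhob was at 486, 441, 404 and 428 CPM in the naive and 192, 217 and 209 CPM in the asbestos replicates, and replicate 3 followed at 224 CPM (-1.09 ± 0.12, edgeR adjusted p = 3.84e-06). Jun, a subunit of the factor AP-1, was at 530.2, 588, 573 and 502 CPM and then 345, 304 and 292 CPM, with replicate 3 at 395 CPM (-0.80 ± 0.14, 0.00105). Both groups of libraries were clearly apart for these genes, and both calls were kept with all 24 libraries (3.82e-05 and 0.0168).

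Egr1, a zinc-finger factor of the growth response, was at 163, 209.6, 218 and 517 CPM in the naive and 83.7, 69.7 and 78.2 CPM in the asbestos replicates. Naive replicate 4 was far above the other naive libraries, and the fold was -1.84 ± 0.34 (edgeR adjusted p = 0.00206) and between -2.02 and -1.35 when any 1 library was left out. Klf2, a quiescence factor of macrophages and lymphocytes, was at 179, 173, 123 and 147 CPM and then 56.3, 82.1 and 83.6 CPM (-1.07 ± 0.16, 2.42e-04). Ier2 was at 258, 269, 206 and 282 CPM and then 157, 156 and 153 CPM (-0.70 ± 0.12, 0.00125). The falls of Jund (-0.44 ± 0.12), Klf6 (-0.41 ± 0.10) and Myc (-0.73 ± 0.19) and the rise of Ier3 (0.72 ± 0.20) were each lost without any 1 of several libraries (edgeR adjusted p 0.0525 to 0.224). Fos, the partner of Jun in AP-1, was at 1435, 2059, 2029.7 and 2462 CPM in the naive and 1675, 1855 and 1706 CPM in the asbestos replicates and was not called (-0.19 ± 0.12, 0.463). The 250 bases before the start of the 5 genes with a window among the 8 that fell held neither TGACGTCA nor TGANTCA on either strand. These letters were present in 3.06% and 5.48% of tested genes with a window and in 1.55% and 6.75% of all windows. At such shares the lack of a match in 5 genes says little. Of 19 members with a window that were not called, 2 held TGACGTCA (10.5%) and none TGANTCA.

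Other genes of smallest p among those that fell were Acot1, an acyl-CoA thioesterase, at 62.4, 58.1, 59.0 and 54.5 CPM in the naive and 39.7, 36.9 and 32.4 CPM in the asbestos replicates (-0.68 ± 0.11, edgeR adjusted p = 7.93e-04), and Gimap6, a GTPase of lymphocytes and macrophages, at 9.27, 9.65, 11.6 and 6.16 CPM and then 3.56, 3.75 and 2.47 CPM (-1.48 ± 0.25, 0.00106). Rtl6, a gene derived from a retrotransposon, was at 14.7, 15.1, 16.6 and 13.5 CPM and then 7.35, 8.26 and 8.22 CPM (-0.91 ± 0.15, edgeR adjusted p = 8.36e-04). Amigo2, an adhesion protein, and Nptxr, a pentraxin receptor, both better known from neurons, changed by -1.01 ± 0.18 and -1.04 ± 0.19 (0.00159 and 0.00198). These 5 genes too were picked among those whose groups did not overlap. Rtl6 and Gimap6 were called with all 24 libraries (edgeR adjusted p = 0.0199 and 0.0127).

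The title of the series names ISRIB, an inhibitor of the integrated stress response, and no library used here is labelled as treated with it. Of 33 genes of that response 2 rose (6.06%, against 3.16% of all genes tested) and none fell, with a median of 0.02. Atf4, its central transcription factor, was at 236, 211, 161 and 194 CPM in the naive and 189, 215 and 203 CPM in the asbestos replicates (0.02 ± 0.11, edgeR adjusted p = 0.958), and the sign of this difference turned without naive replicate 3 or asbestos replicate 2 and with all 24 libraries. The members that rose were Gpt2, an alanine transaminase (0.65 ± 0.11, 0.00138), and Slc7a11, the cystine importer, at 14.6, 13.8, 12.5 and 37.9 CPM and then 41.3, 30.5 and 78.5 CPM. Naive replicate 4 of Slc7a11 lay near the asbestos libraries, and the call (1.35 ± 0.38, 0.0488) was lost without naive replicates 1, 2 or 3 or asbestos replicates 1 or 4 (edgeR adjusted p 0.0870 to 0.322).

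Of 30 chaperones and unfolded protein response genes of the endoplasmic reticulum 27 had a positive fold and 3 rose (10%, median 0.18): Sec61a1, the translocon channel (0.27 ± 0.06), Manf (0.43 ± 0.10) and Hyou1 (0.31 ± 0.09). Each of these calls was lost without at least 1 library, asbestos replicate 1 or 4 among them (edgeR adjusted p 0.0566 to 0.200). The chaperone Hspa5 was at 880.4, 968, 682 and 843 CPM in the naive and 980.2, 1043 and 1173 CPM in the asbestos replicates (0.34 ± 0.11, 0.0937). Of 25 cytosolic and mitochondrial heat shock chaperones 23 had a negative fold and 2 fell (8%, against 0.969% of all genes tested, median -0.12), Fkbp4 (-0.29 ± 0.07) and Chordc1 (-0.52 ± 0.14). Both of these calls were lost without naive replicate 2 or asbestos replicates 1 or 4, and Chordc1 without every library (0.0516 to 0.177). Of 43 proteasome genes 1 rose (2.33%, against 3.16% of all genes tested), Psmd8 (0.42 ± 0.11). It lost the call without any 1 of 5 libraries (edgeR adjusted p 0.0530 to 0.101).

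Of 75 oxidative phosphorylation genes 69 had a positive fold (median 0.15) and 3 rose (4%, against 3.16% of all genes tested), Ndufa1 (0.56 ± 0.13), Cox8a (0.44 ± 0.11) and Atp5g2 (0.38 ± 0.10). Leaving out naive replicate 2, or asbestos replicate 1, ended all 3 calls (edgeR adjusted p 0.0523 to 0.146 over all removals), and the list median was -0.01 with all 24 libraries. Of 34 glycolysis and hypoxia genes 5 rose (14.7%), Fbp1, Hk3 (0.41 ± 0.11), Slc2a1 (0.49 ± 0.12), Aldoc (0.52 ± 0.14) and the lactate carrier Slc16a1 (0.55 ± 0.15), and the last 4 lost the call without asbestos replicate 1 or 4 or naive replicate 3 (0.0546 to 0.181). Of 35 mitosis genes 32 had a positive fold (median 0.28) and 3 rose (8.57%), Ccnb1 (0.78 ± 0.17), Kif2c (0.66 ± 0.15) and Ccna2 (0.45 ± 0.13). Each lost the call without asbestos replicate 1 or 4 (0.0509 to 0.197). Of 36 DNA replication genes 3 rose (8.33%), Rrm2 (0.58 ± 0.12), Tk1 (0.50 ± 0.11) and Chaf1b (0.57 ± 0.14), of which Rrm2 and Tk1 kept the call without any 1 library.

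Of 21 cell cycle inhibitors and senescence genes 2 rose (9.52%, against 3.16% of all genes tested), Glb1 and Cdkn2a. Cdkn2a, which encodes the inhibitor p16 and the protein ARF, was at 9.09, 12.0, 6.80 and 7.28 CPM in the naive and 18.6, 16.5 and 18.9 CPM in the asbestos replicates (1.04 ± 0.24, edgeR adjusted p = 0.0131), lost without asbestos replicate 1 (0.0585) or 4 (0.0572). Cdkn1a, which encodes p21, was at 461, 289, 244 and 289 CPM and then 400.1, 373 and 407 CPM and was not called (0.30 ± 0.16, 0.369). Without naive replicate 1, the highest naive library, its fold was 0.53 and it was called (0.0370). Iron-handling genes rose in 5 of 21 cases (23.8%). Among them were the metal exporter of phagosomes Slc11a1, at 10.4, 7.69, 6.91 and 10.7 CPM and then 16.2, 13.7 and 28.5 CPM (1.12 ± 0.22, edgeR adjusted p = 0.00339), and the ferrireductase Steap3 (1.08 ± 0.22). All 5, with Slc11a2, Slc48a1 and Hfe, lost the call without at least 1 library (0.0534 to 0.205). None of 34 interferon-stimulated genes was called by edgeR (median 0.15). Of 27 antioxidant genes of the NRF2 pathway only Slc7a11 rose (3.70%), close to the share of all genes tested. Of 30 autophagy genes 3 rose (10%), the adaptor Optn (0.87 ± 0.15), which kept the call without any 1 library, Gabarapl1 and Atg10.

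Transcripts of other cells were present in these sorts, and some of those of B cells fell after asbestos. Of 16 tested B cell markers 4 fell (25%, against 0.969% of all genes tested, median -0.98). Among them were the surface protein Ms4a1 (-1.31 ± 0.27), the factor Ebf1 (-1.73 ± 0.37) and the heavy chain gene Ighm (-1.64 ± 0.38). These 3 calls were lost without asbestos replicate 4 (edgeR adjusted p 0.0538 to 0.0992), and none was made with all 24 libraries. In bulk libraries fewer cells of a type and less RNA per cell cannot be told apart. The summed level of the list was 399 to 601 CPM in the naive and 231 to 379 CPM in the asbestos libraries, and without immunoglobulin genes, where most of the sum is Cd22, it was 183 to 222 and 182 to 197 CPM. Klf2, Gimap6 and H2-Ob, an MHC class II gene of B cells (-1.11 ± 0.23, 0.00649; 0.0597 without asbestos replicate 4), fell beside these markers and are also expressed by lymphocytes. The part of such cells in their fall was not tested. The other 13 MHC class II genes were not called (median of the 14, -0.35).

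T and NK cell markers summed to 37.5 to 74.6 CPM in the naive and 29.5 to 46.9 CPM in the asbestos libraries, and none of 19 was called. Neutrophil markers summed to 59.97 to 82.9 and 78.8 to 90.0 CPM, with Ly6g and Elane at 0 in all 8 libraries. Of 6 tested eosinophil markers 2 rose, Ear6 and Alox15 (33.3%, against 3.16% of all genes tested), and 5 had a positive fold (median 1.61). The eosinophil list, which holds Siglecf itself, summed to 498 to 516 CPM in the naive and 475 to 514 CPM in the asbestos libraries, with Prg3 at 0 in all 8. Siglecf alone was at 489 to 512 and 454 to 472 CPM, so the sum says little of the other members. Fibroblast and smooth muscle markers summed to 6.63 to 12.8 and 8.50 to 23.9 CPM. Their part in the results was not tested. Endothelial markers summed to 157 to 192 and 205 to 270 CPM, and Vwf, which rose by 0.56 ± 0.13, made up most of the sum. Its call needed naive replicate 2 and asbestos replicates 1 and 4 (edgeR adjusted p 0.0661 to 0.125 without one of them). Other endothelial genes, such as Pecam1, Cdh5 and Kdr, were not called. The club cell gene Scgb1a1 was called higher (2.01 ± 0.53), but only asbestos replicate 1 was high, at 38.2 CPM, against 3.38, 4.99, 4.14 and 2.66 CPM in the naive replicates and 4.69 and 2.77 CPM in asbestos replicates 2 and 4, and without it the difference was -0.0093. The call was also lost without any 1 naive replicate (edgeR adjusted p 0.0532 to 0.0736).

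In young Siglec F-high cells the same contrast called 690 genes (5.06%), 474 higher (3.48%) and 216 lower (1.58%), from libraries that the old contrast does not use. Of the 430 genes that rose in old cells 217 rose in young cells too (50.5% of the old and 45.8% of the young list) and 413 had a positive fold there. Of the 132 that fell 45 fell in young cells too (34.1% of the old and 20.8% of the young list) and 118 had a negative fold. Testing the difference between the responses directly, as old minus young, called 2 genes of 13629 (0.0147%). An unadjusted p under 0.05 was given for 703, close to the 681 that would be reached by chance. With all 24 libraries 0 genes were called by edgeR, with 1050 at an unadjusted p under 0.05, where about 673 would be reached by chance. DESeq2 on the 22 libraries called 12.

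Several genes passed in old cells alone without a called difference. The fold of Itgam was 1.39 ± 0.19 in old and 0.17 in young cells, a difference of 1.22 ± 0.27 (edgeR adjusted p = 0.234). For Cd36 the folds were 0.70 ± 0.13 and 0.09 (difference 0.61 ± 0.19, 0.589), and for Irf4 0.78 ± 0.19 and -0.40 (difference 1.18 ± 0.27, 0.234). Cholesterol synthesis genes rose in 10 of 24 cases in old and in 2 of 24 in young cells, with medians of 0.40 and 0.18. The old response was the larger in 23 of 24, but no difference was called and the smallest adjusted p was 0.881. Conversely, mitosis genes rose in 3 of 35 cases in old and 13 in young cells. Heat shock chaperones fell in 2 of 25 and 8, and immediate early genes in 8 of 30 and 12. Again 0 differences were called in these lists. Over all genes tested 3.16% rose in old and 3.48% in young cells. The shares that fell were 0.969% and 1.58%, so more genes were called in young cells in general. Arg1 rose by 5.27 ± 0.33 in old and 4.02 in young cells (difference 1.25 ± 0.65, 0.971) and Chil3 by 1.33 ± 0.12 and 0.74 (difference 0.59 ± 0.17, 0.578).

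**Figure D4:**
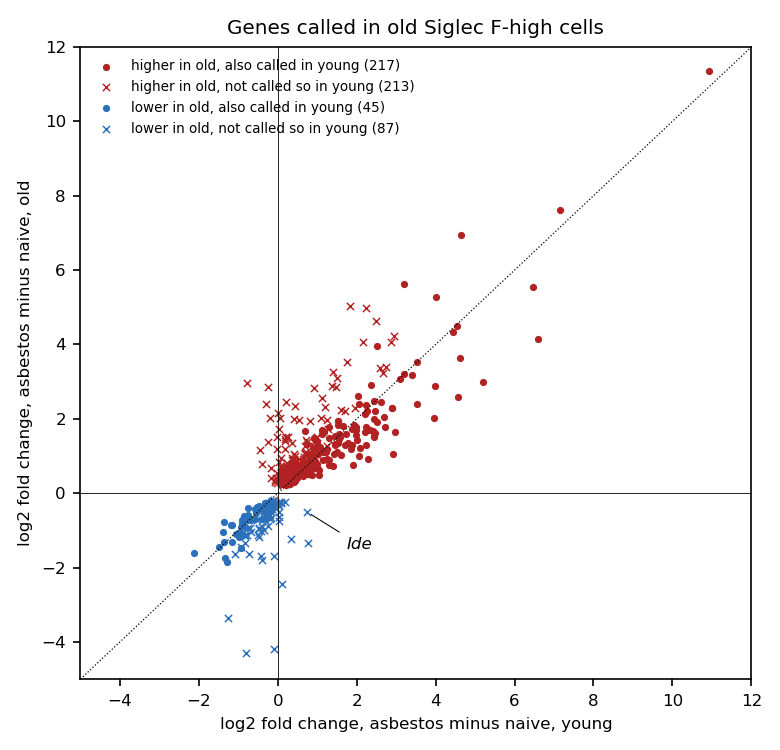
Log2 fold change, asbestos minus naive, of the 562 genes called in old Siglec F-high cells (vertical) against the same contrast in young Siglec F-high cells (horizontal), red for genes that rose and blue for genes that fell in old cells. Filled circles were called in the same direction in young cells (217 higher and 45 lower), crosses were not, and the dotted line marks equal folds; Ide fell in old and rose in young cells.

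The 2 genes called were Ide and Gca. Ide, which encodes the insulin-degrading enzyme (chr19:37268743-37337852, minus strand, GENCODE M21 on GRCm38), was at 87.8, 91.3, 99.7 and 92.2 CPM in old naive and 66.2, 63.8 and 64.6 CPM in old asbestos replicates, with replicate 3 at 67.0 CPM (-0.51 ± 0.07, edgeR adjusted p = 7.15e-05). In young cells it went the other way, from 53.7 to 61.5 CPM in the naive to 94.4 to 102 CPM in the asbestos libraries (0.75). The difference between the responses was -1.27 ± 0.09 (edgeR adjusted p = 5.02e-08), and it was -1.03 at an adjusted p of 0.587 with all 24 libraries, where young asbestos replicate 3 was at 38.7 CPM. The levels fell into 2 ranges that did not follow age or treatment alone. Old naive, young asbestos Siglec F-high and young asbestos Siglec F-low libraries, without young asbestos Siglec F-high replicate 3, lay at 87.8 to 102 CPM, and young naive, old asbestos Siglec F-high and old asbestos Siglec F-low libraries at 53.7 to 68.8 CPM. Naive and asbestos libraries come from different mice, and both sorts of the asbestos mice of 1 age lay in the same range. A response of Ide to asbestos and a difference between these sets of mice that was there without it cannot be told apart.

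Among the neighbours of Ide on chromosome 19, Fgfbp3 was at 1.36 to 2.21 CPM in old naive libraries and at or below 1.09 CPM in the other groups. Cpeb3 and March5, on 1 side of Ide, were at 9.79 to 11.3 and 55.6 to 65.1 CPM in old naive libraries. In old asbestos Siglec F-high libraries they were at 9.52 to 10.4 and 53.2 to 59.4 CPM, so those ranges overlapped. Kif11, the nearest tested gene on the other side, was at 15.8 to 18.2 CPM in old naive and 20.04 to 20.7 CPM in old asbestos Siglec F-high libraries, with no overlap and in the opposite direction to Ide. Gca, which encodes the calcium-binding protein grancalcin, was at 29.8, 30.5, 24.3 and 34.7 CPM in old naive and 23.7, 29.5 and 34.3 CPM in old asbestos replicates (-0.03 ± 0.17) and rose by 1.40 in young cells. The difference was -1.43 ± 0.24 (edgeR adjusted p = 0.0269; 0.587 with all 24 libraries). It was lost without any 1 of 9 libraries, young naive replicates 2, 3 and 4, old naive replicates 2 and 4, young asbestos replicates 2 and 4 and old asbestos replicates 1 and 2 (0.0514 to 0.142), while that of Ide was kept without any 1 library.

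**Figure D5:**
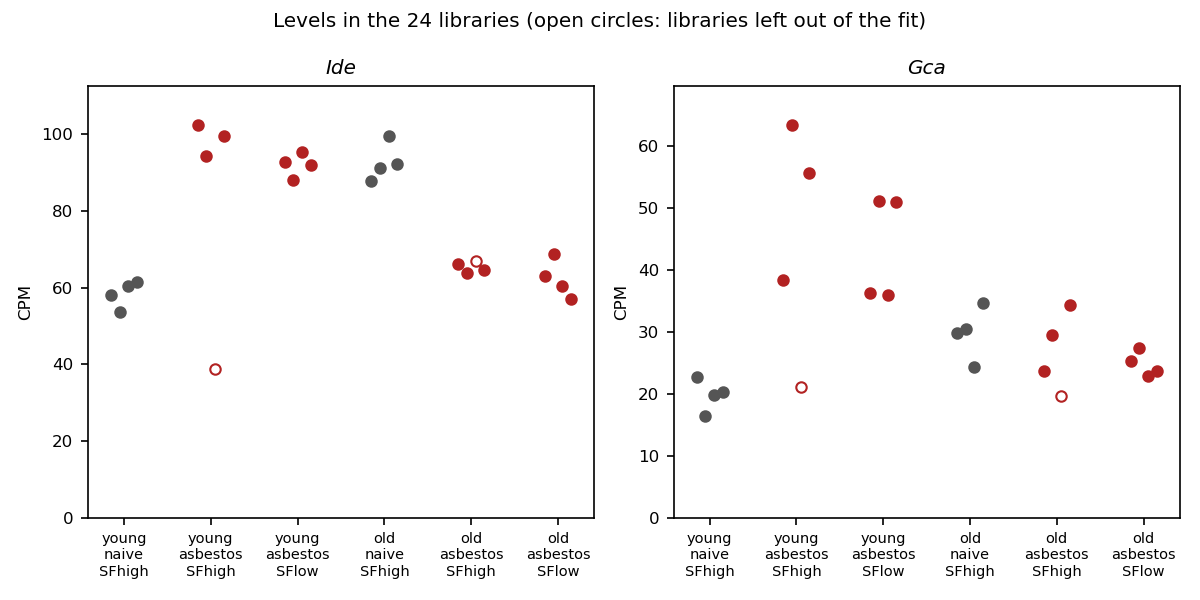
CPM of Ide and Gca in each of the 24 libraries by group, grey for naive and red for asbestos, with the 2 libraries left out of the tests as open circles; both vertical axes start at 0. For Ide the old naive libraries (87.8 to 99.7) lie with the young asbestos ones and the old asbestos libraries (63.8 to 66.2) near the young naive ones.

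Old Siglec F-low libraries from asbestos mice held more of several of these transcripts. Arg1 was at 333, 395, 530.4 and 469 CPM in their 4 replicates, Fbp1 at 395, 323, 322 and 310.2 CPM and Mmp12 at 1692, 1073, 961 and 1507 CPM. Mfge8 was at 745, 518, 648 and 939 CPM and Igf1 at 227, 237, 225 and 241 CPM. All of these lay above every old asbestos Siglec F-high library. Siglecf was lower in them, at 221, 148, 159 and 165 CPM, and so below every old Siglec F-high library. Rhob, at 198, 238, 285 and 237 CPM, was near the old asbestos Siglec F-high libraries. Whether Siglec F-high sorts held RNA of Siglec F-low cells was not tested.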

How the data were processed

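RNA of sorted lung macrophages was sequenced as 24 libraries, and 8 of them, old Siglec F-high cells, are described here. The deposited table holds raw counts per gene and library, made by the authors with bcl2fastq 2.19.1, FastQC, Trimmomatic 0.36, STAR 2.6.0 and HTSeq 0.11.2 on mm10, per the submitters' processing notes. The annotation and the strand setting of the counting are not given in the sources used here. Ribosomal RNA in a library lowers the depth left for other genes, and genes that share reads with a near copy are uncertain.

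Counts were normalised with TMM and tested with the quasi-likelihood test of edgeR 4.0.16 (limma 3.58.1, R 4.3.3) in 1 model of 6 groups. The model used 22 libraries, and genes were kept by filterByExpr at a minimum count of 10. DESeq2 1.42.0 and limma voom were alternatives, as were other library sets, scalings and filters. Counts with 200 changed genes of 13629 were simulated for the old Siglec F-high comparison. Of 100 genes changed 2-fold 73% were recovered, and of 100 changed 4-fold 88%. Of 167 genes called in the simulation 6 were false. Smaller changes were not simulated, and only 186 of the 562 genes called in the data changed by at least 2-fold. Positions of 13558 tested genes came from GENCODE M21.

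The members and gene lists were chosen with earlier results of these data known. Named genes were 22 chosen by name, the 15 higher and 10 lower called genes of smallest p whose groups did not overlap, up to 3 called genes of smallest p per list and direction, and the called interaction genes. The other called members of the lists were added after their values were seen. A few of these genes are not reported here.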

Additional observations from a re-analysis of the deposited data

Results flagged for a closer look

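Old asbestos replicate 3 lay apart from its group in 3 measures. It had 15037 genes with a count, against 17690 to 18135 in the others, 54.0% of counts on ribosomal RNA genes, against 0.373 to 0.595%, and a correlation of 0.928 with its group, against 0.985 to 0.990.

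In 10 of 156 named genes 1 of the 4 naive libraries stood far from the others, where about 1 in 20 groups, or 7.8 of 156, would do so by chance. Naive replicate 4 was high for Car4 (773 CPM, others 358 to 394), Egr1 (517 CPM, others 163 to 218) and Slc7a11 (37.9 CPM, others 12.5 to 14.6). It was also high for Ear6 (6.99 CPM, others 1.96 to 2.80) and Dhcr7 (87.0 CPM, others 62.5 to 65.0). Naive replicate 2 was high for Mmp12 (155 CPM, others 12.6 to 25.5) and Ccl17 (3.20 CPM, others 0.663 to 0.991). It was also high for Slc16a1 (45.6 CPM, others 28.6 to 29.6). Naive replicate 1 was high for Pparg (229 CPM, others 211 to 212), and naive replicate 3 was low for Inhba (0.332 CPM, others 0.888 to 0.991).

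The asbestos minus naive difference was lower in old than in young Siglec F-high cells for Ide, by -1.27, and for Gca, by -1.43 on the log2 scale, by the test of the difference itself in edgeR. For Ide, a response to asbestos and a difference between the sets of mice that was there without it cannot be told apart.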

How the results depend on the processing

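The count of genes called in old Siglec F-high cells (562) was 105 with all 24 libraries, 93 with 23 (old asbestos Siglec F-high replicate 3 alone left out) and 51 with the 8 libraries of the 2 groups alone. It ranged from 223 to 532 when 1 library was left out. Under another scaling, without ribosomal RNA genes, without a filter, with DESeq2 or limma voom, or with the 7 libraries alone it was 493 to 815. The count of differences from young cells (2) was 0 with all 24 libraries and 0 with 23, 16 without a filter and 12 with DESeq2, and 1 to 3 when 1 library was left out. The causes were not tested. Of 149 called genes examined singly, 39 kept the call with all 24 libraries, and 63 kept it without any 1 library.

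The sign of Atf4 turned with all 24 libraries (-0.12), with the replicate block (-0.0043), with the 8 libraries alone (-0.12) and with the 7 libraries alone and the block (-0.078), and its fold was -0.077 to 0.10 when 1 library was left out. The fold of Gca in old cells, not called, was -0.16 to 0.10, and that of Scgb1a1 -0.0093 to 2.50, when 1 library was left out. With the replicate number as a block 725 genes were called, 544 of them in common. Deviations of libraries with the same number, 1, 2 and 4, correlated at 0.0116, 0.119 and 0.0838. The value for number 2 was above the limit of 0.1 set for this check. The numbers were not taken to pair the libraries in the main fit, and the check does not settle whether they do.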

Other observations

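Among the 430 genes that rose, the highest naive library was replicate 4 in 185 cases (43.0%) and replicate 3 in 53 (12.3%). Over all genes tested the same replicates were the highest naive library in 24.7% and 24.1% of cases.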
